A study of Homo sapiens with 12 samples.

Results

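The 46 genes described here act in the G2 phase and in mitosis, the last stages of the cell division cycle. They were taken by function, with earlier results of these data known. A gene was measured where a probe set of the array names it and no other gene; where there were several such probe sets, the brightest by its mean over the 12 arrays stood for it. This gave 45 of the 46 members among 18404 genes in all. CENPA, the histone variant of centromeres, lies on a probe set shared with SLC35F6 and was not used. The study measured total RNA of 2 established human melanoma cell lines on Affymetrix Human Gene 1.0 ST arrays, where a probe set pools the signal of short probes spread over a transcript. Its 4 groups of 3 arrays were A375 cells with vemurafenib, A375 cells with DMSO, A2058 cells with vemurafenib and A2058 cells with DMSO. All 4 groups carry BRAF V600E per the labels, and the source of the A375 samples is written A375p there. Vemurafenib inhibits the mutant BRAF kinase and DMSO is its solvent; the drug was given at 1 µM for 72 h with fresh drug every 24 h. That protocol stands on every sample but speaks of A375p alone, so for A2058 dose and time rest on its being shared. Nothing says whether the 3 arrays of a group came from separate cultures, so the p-values below measure the spread between these arrays, which may be technical.

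Cells enter mitosis when cyclin B binds and activates the kinase CDK1. Kinetochores then tie chromosomes to the spindle, a checkpoint holds the cell until all are attached, and the anaphase promoting complex, with CDC20, marks securin and cyclin B for destruction so that sister chromatids part and the cell divides. Most of these genes are transcribed late in the cycle and are silent in resting cells. Their promoters are known for 2 short elements, the cell cycle genes homology region (CHR), bound by the MuvB complex with B-MYB or pocket proteins, and the CCAAT box, bound by NF-Y; FOXM1 joins B-MYB and MuvB at them. In bulk RNA, fewer cells in G2 or mitosis and less of a transcript per such cell cannot be told apart.

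Printed here are promoters of the members that rose most in A375, among those with array values below and a promoter on hand. FOXM1, with a rise of 0.64, was passed over for lack of a promoter. The promoters are printed because most members share such elements. They are RefSeq promoters of GRCh38.p14, from 250 bases before to 50 bases after the annotated start, written 5′ to 3′ on the gene's strand. Capitals mark TTTGAA (the CHR), TTTAAA and CCAAT, or their reverse complements. The search covered TTTGAA, its variant TTCGAA and CCAAT on both strands, and TTTAAA was added after these promoters had been read. KIF20A is at chr5:138178862-138179161 on the plus strand, DLGAP5 at chr14:55191536-55191835 on the minus strand and CCNB1 at chr5:69166900-69167199 on the plus strand. CENPE is at chr4:103198294-103198593 and KIF18A at chr11:28108107-28108406, both on the minus strand.
KIF20A: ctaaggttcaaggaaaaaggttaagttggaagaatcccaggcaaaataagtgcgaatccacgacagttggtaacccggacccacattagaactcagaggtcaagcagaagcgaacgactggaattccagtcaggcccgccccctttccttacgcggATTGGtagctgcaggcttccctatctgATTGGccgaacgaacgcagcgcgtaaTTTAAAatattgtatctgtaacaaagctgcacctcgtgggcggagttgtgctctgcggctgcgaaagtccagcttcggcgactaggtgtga
DLGAP5: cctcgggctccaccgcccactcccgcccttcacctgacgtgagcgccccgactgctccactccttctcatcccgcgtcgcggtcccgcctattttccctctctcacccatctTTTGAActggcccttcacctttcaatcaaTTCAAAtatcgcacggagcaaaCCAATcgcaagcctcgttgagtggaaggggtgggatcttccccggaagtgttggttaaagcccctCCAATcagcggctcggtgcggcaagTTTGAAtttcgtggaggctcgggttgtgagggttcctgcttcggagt
CCNB1: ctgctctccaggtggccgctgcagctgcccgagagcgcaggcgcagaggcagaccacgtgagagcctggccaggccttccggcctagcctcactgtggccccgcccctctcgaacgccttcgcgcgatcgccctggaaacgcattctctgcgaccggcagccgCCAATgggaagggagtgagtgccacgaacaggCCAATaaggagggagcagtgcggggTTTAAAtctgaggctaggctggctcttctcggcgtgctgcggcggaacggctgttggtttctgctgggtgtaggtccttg
CENPE: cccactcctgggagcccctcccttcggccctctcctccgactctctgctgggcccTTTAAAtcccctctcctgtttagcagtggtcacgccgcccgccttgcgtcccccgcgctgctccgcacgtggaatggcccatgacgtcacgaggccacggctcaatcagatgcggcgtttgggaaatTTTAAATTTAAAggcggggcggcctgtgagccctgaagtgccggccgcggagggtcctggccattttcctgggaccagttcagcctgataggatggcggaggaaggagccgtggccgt
KIF18A: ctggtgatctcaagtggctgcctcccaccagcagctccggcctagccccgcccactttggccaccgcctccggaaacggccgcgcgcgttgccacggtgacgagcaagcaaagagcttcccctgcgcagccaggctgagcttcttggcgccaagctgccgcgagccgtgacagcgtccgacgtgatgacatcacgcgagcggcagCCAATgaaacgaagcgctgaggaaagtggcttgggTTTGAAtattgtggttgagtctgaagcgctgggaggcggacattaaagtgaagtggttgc

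In KIF20A and CCNB1 a TTTAAA stands at -41 and -30, downstream of 2 CCAAT boxes at -94 and -67 and at -87 and -55. Positions count the annotated start as the first base, with no position 0. In DLGAP5 a CHR lies at 4, just past the start, with others at -138 and -109 and CCAAT boxes at -87 and -22. KIF18A has a CHR at -10 and a CCAAT box at -45, and CENPE has no TTTGAA or CCAAT in this window but TTTAAA at -195, -68 and -62. The table held promoters for 40 of the 46 members; AURKA, TTK, BIRC5, TPX2, UBE2C and FOXM1 are only named. TTTGAA occurred in 28 of the 40 (70%), against 15.4% of all 27305 promoters of this length, and CCAAT in 31 (77.5%), against 35.7%. TTCGAA was found in 3 members (7.5%, against 1.45%). TTTAAA, added after the printed promoters had been read, was found in 15 (37.5%, against 12.3%), and KIF20A, CCNB1 and CENPE are among these 15. A TTTGAA or TTCGAA together with a CCAAT was present in 25 members (62.5%), against 6.58% of all promoters. Of 37 CHR matches 26 began between -50 and 50, and of 64 CCAAT matches 43 began between -150 and -51. In A375 the median change was 0.42 for the 27 measured members with TTTGAA and 0.37 for the 12 without it. In A2058 these medians were 0.05 and 0.04. The 12 are not free of related letters: BUB1 and SGO1 hold TTCGAA, and CCNB1, CENPE, KIF20A, KIF2C and PTTG1 hold TTTAAA. A match is a description of letters and says nothing of binding.

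**Figure D1:**
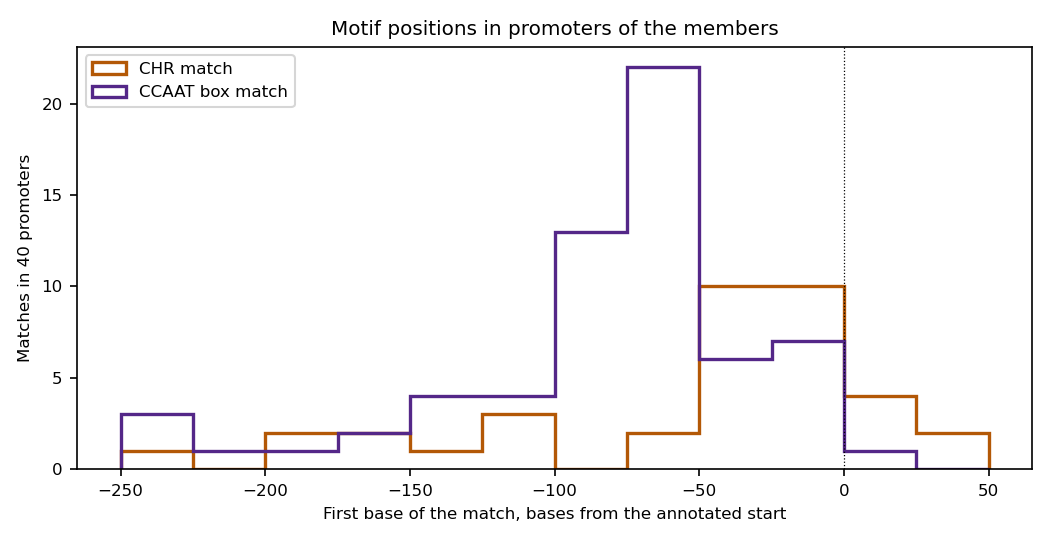
Histogram of motif matches in the 40 member promoters, by the position of the first base in bases from the annotated start (x axis) and the number of matches (y axis). CHR matches (TTTGAA) gather between -50 and 50 with 26 of 37, and CCAAT matches gather upstream of them, with 43 of 64 between -150 and -51.

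Arrays of one group correlated at r = 0.9978 to 0.9989 over all genes, except for A375 vemurafenib replicate 1, which reached 0.9941 and 0.9939 with replicates 2 and 3, themselves correlated at 0.9982. That array was the lowest of its group for 39 of the 45 members, against 40.3% of all genes, and lay a median of 0.21 below the mean of the other arrays (-0.21; 0.012 over all genes). A2058 DMSO replicate 2 was the lowest of its group for 38 members, against 32.2% of all genes, with a median of -0.11. DUSP6, a phosphatase that ERK signalling induces, fell with vemurafenib by 1.69 ± 0.055 in A375 (adjusted p = 7.22e-11) and by 2.63 ± 0.055 in A2058 (adjusted p = 4.55e-12), with no overlap of arrays in either line. Of 11 melanocyte markers, 4 rose (36.4%) and 3 fell (27.3%) in A375 and 8 rose (72.7%) in A2058. SOX10 (9.38 with vemurafenib and 9.53 with DMSO in A375, 9.48 and 9.21 in A2058) and ERBB3 were bright in both lines. MITF rose by 0.73 in each line, S100B by 1.01 in A375, with 0.09 in A2058, and S100A1 changed by -0.67 in A375. In A2058 TYRP1 (3.26), PMEL (2.43), MLANA (2.33), GPM6B (2.27) and PAX3 (1.00) rose, and in A375 TYR, PMEL, MLANA and TYRP1 stood between 4.44 and 5.30, near the lower end of the scale. Of 42 markers of fibroblasts, blood, epithelial and endothelial cells, 5 rose and 7 fell in A375, and 2 rose and 5 fell in A2058. Of all genes, 17.7% rose and 19.3% fell in A375, and 14.6% rose and 12.5% fell in A2058. The fibroblast gene LUM averaged 6.37 with vemurafenib and 4.22 with DMSO in A375, a rise of 2.15, and 6.47 with vemurafenib and 6.88 with DMSO in A2058, a change of -0.41. The other fibroblast genes that rose in A375 were POSTN (0.51), PDGFRB (0.37) and DCN (0.19), all with group means of at most 6.40, and CD68 rose by 0.92 in A375 and 0.21 in A2058. KRT18 (-1.79 in A375 and -1.41 in A2058) and LYZ (-1.27 and -2.12) fell in both lines, and KDR fell in A2058 (-0.64). The collagens COL1A2 and COL3A1, PTPRC, EPCAM and PECAM1 had group means between 4.15 and 5.23. The part of these differences in the results was not tested.

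**Figure D2:**
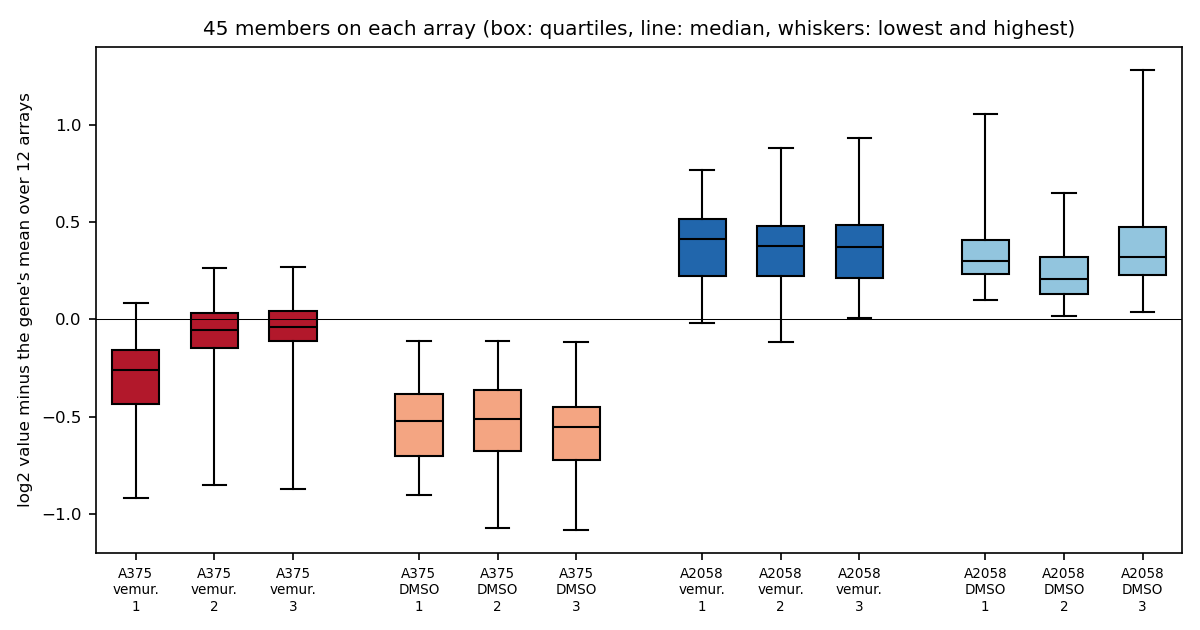
Each of the 12 arrays (x axis) as a box of the 45 members' log2 values minus the gene's mean over all arrays (y axis); boxes span the quartiles, lines mark medians and whiskers reach the lowest and highest member. A375 vemurafenib replicate 1, with a median of -0.26, lies below replicates 2 and 3 (-0.054 and -0.038) and above the A375 DMSO arrays (-0.55 to -0.51), and the medians of all 6 A2058 arrays lie above those of A375.

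Vemurafenib was followed by higher mitotic transcripts in A375. Of the 45 members 37 were called higher and none lower, where a call is an adjusted p below 0.05 in limma; 37% of all genes were called in A375 (17.7% higher and 19.3% lower). At an unadjusted p below 0.05 in limma the count was 39, again all higher. The share of all genes at that threshold is not given here, so this count has no background. The median change was 0.39 on the log2 scale, or 1.31-fold, and the range was from -0.05 for KIF15 to 0.95 for KIF20A, so no member reached 2-fold, against 4.2% of all genes called and at least 2-fold changed. All 3 vemurafenib arrays lay above all 3 DMSO arrays for 34 members and below them for none; 21% of all genes were so separated upwards and 22.6% downwards. Without A375 vemurafenib replicate 1 the count was 40 higher and none lower (20.6% of all genes higher), with a median of 0.48 and KIF20A at 1.00.

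In A2058 most members were not called, and neither were most of all genes. Of the 45, 8 were called higher (17.8%) and 2 lower (4.44%), against 14.6% and 12.5% of all genes (27.1% in all). The median change was 0.048 (0.0076 to 0.072 with 1 array left out, lowest without A2058 DMSO replicate 2). None reached 2-fold, against 1.98% of all genes called and at least 2-fold changed. The range ran from -0.29 for KIF18A to 0.37 for KIF20A. The arrays of both A2058 groups overlapped for 29 members, were separated upwards for 13 (21.9% of all genes) and downwards for 3 (18.7%). The counts shift with 1 array. Without replicate 2 of A2058 DMSO, which was low for most members, 4 were called higher and 5 lower. Without replicate 1 or 2 of A2058 vemurafenib 5 were called higher. In the other direction, 12 were called higher and 3 lower without A375 vemurafenib replicate 1. With 1 array left out, 2207 to 3222 of all 18404 genes were called higher in A2058 and 1902 to 2730 lower. Called higher in both lines were CDC25C, CENPF, BUB1B, CDCA8, NUSAP1, ASPM, KIF20A and FOXM1, and PLK1 and CDC20 were called higher in A375 and lower in A2058.

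The responses themselves differed between the lines. The interaction term, the change in A375 minus the change in A2058, was called above 0 for 29 members and below 0 for none, against 13.1% and 16.4% of all genes (29.5% in all). In limma 31 passed at an unadjusted p below 0.05, all of them above 0, again without a share of all genes at that threshold. Its median was 0.41, and its range ran from -0.18 for AURKB to 0.92 for KIF18A. Without A375 vemurafenib replicate 1 it was called above 0 for 37 members (16.9% of all genes) and below 0 for AURKB alone (-0.26, adjusted p = 0.00939). This term uses the same arrays as the 2 responses.

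**Figure D3:**
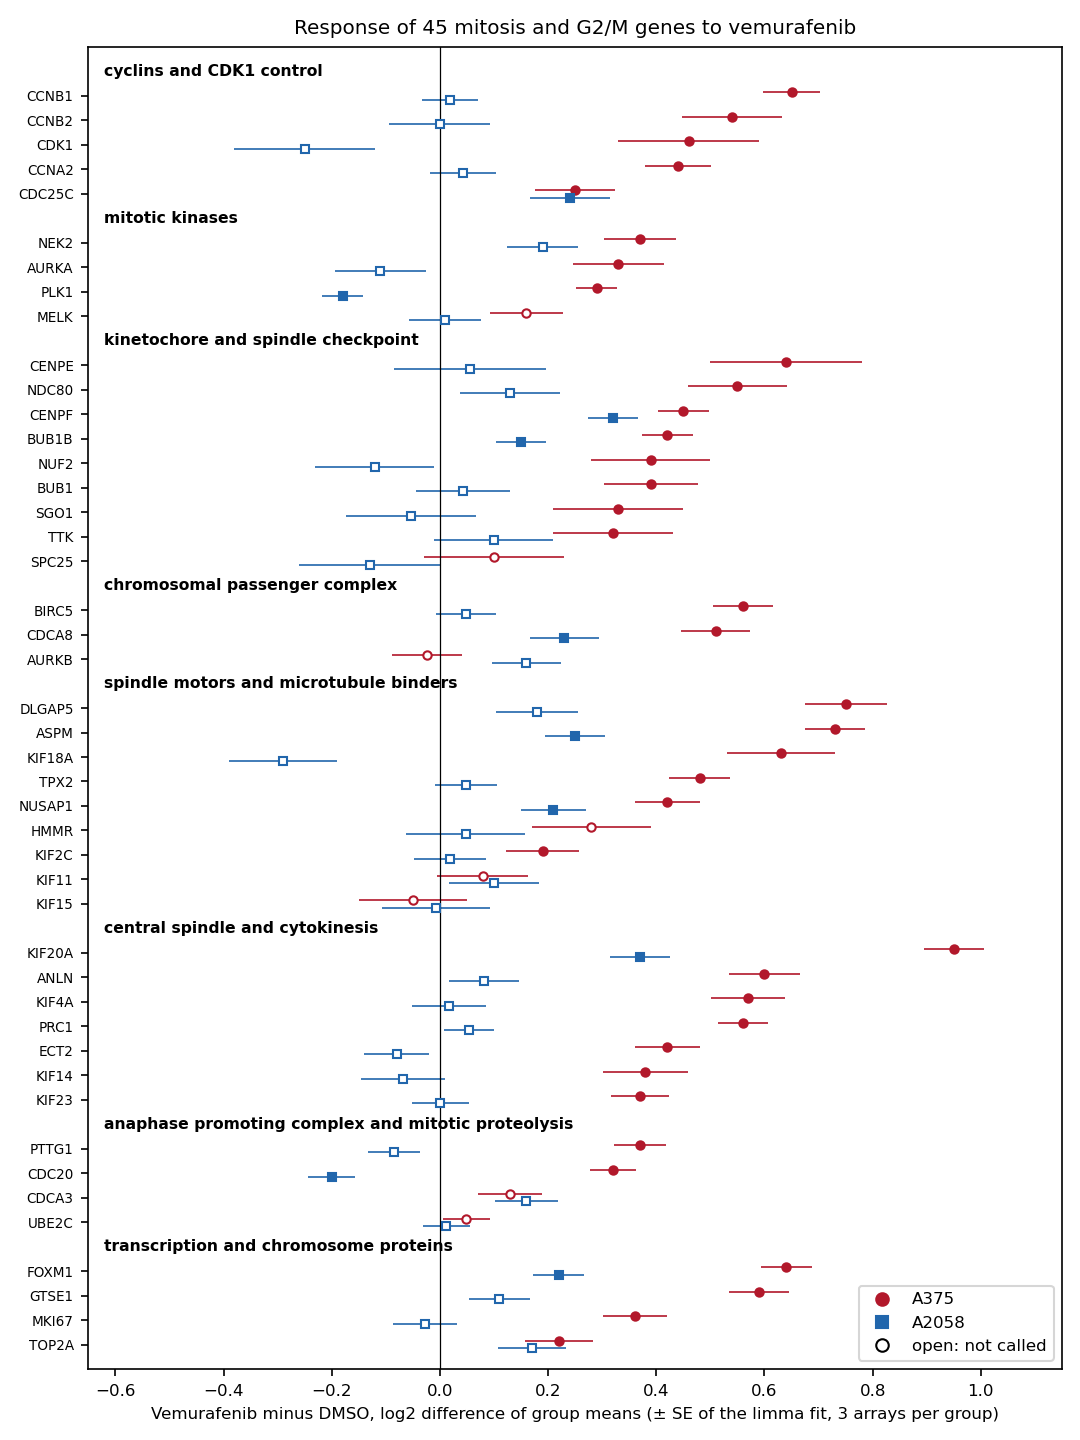
Change of each of the 45 members with vemurafenib, as the log2 difference of group means ± SE of the limma fit (x axis), by role (y axis); circles are A375, squares A2058, filled symbols are called and open ones are not. The A375 points lie to the right of 0 for 43 members, up to KIF20A at 0.95, and the A2058 points lie around 0, from -0.29 to 0.37.

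Among the cyclins and regulators of CDK1, all 5 were called higher in A375 (median 0.46) and 1 in A2058. For this and the role counts below, 17.7% of all genes were called higher in A375 and 14.6% in A2058. The shares called lower were 19.3% and 12.5%. CCNB1, cyclin B1, which activates CDK1 for entry into mitosis, stood at 9.05, 9.26 and 9.20 in A375 vemurafenib arrays, against 8.55, 8.54 and 8.46 in A375 DMSO arrays. In A2058 its values were 9.18, 9.12 and 9.19 with vemurafenib and 9.14, 9.14 and 9.17 with DMSO. The A375 groups were clear of each other and the A2058 groups overlapped: the changes were 0.65 ± 0.052 (adjusted p = 4.77e-07) in A375 and 0.019 ± 0.052 (adjusted p = 0.888) in A2058, and they differed by 0.64 ± 0.074 (adjusted p = 2.57e-05). CDK1, the kinase itself, read 7.46, 7.96 and 7.89 in A375 vemurafenib arrays, against 7.34, 7.31 and 7.26 in A375 DMSO arrays. Its A2058 values were 8.73, 8.72 and 8.70 with vemurafenib, against 8.99, 8.70 and 9.21 with DMSO. Replicate 1 of A375 vemurafenib lay just above the DMSO arrays, and the A2058 DMSO arrays were spread widely around the treated ones. The change in A375 was 0.46 ± 0.13 (adjusted p = 0.0125), a call lost without replicate 2 or 3 of A375 vemurafenib (adjusted p = 0.0504 to 0.0567). The change in A2058 was -0.25 ± 0.13 (adjusted p = 0.213), called without A2058 DMSO replicate 2 or with array weights (adjusted p = 0.0225 to 0.0415). Cyclin B2 (CCNB2, 0.54 ± 0.093) and cyclin A2 (CCNA2, 0.44 ± 0.061), which also serves S phase, rose in A375 with changes in A2058 of -0.00033 and 0.042. CDC25C, a phosphatase that activates CDK1, was called higher by 0.25 in A375 and by 0.24 in A2058, with the smallest difference between lines of this group (0.014 ± 0.11, adjusted p = 0.957). Its A375 call was lost without replicate 1 or 3 of A375 DMSO or replicate 2 or 3 of A375 vemurafenib and under 3 other settings (adjusted p = 0.0503 to 0.0753). Its A2058 call was lost without replicate 2 or 3 of A2058 DMSO or any A2058 vemurafenib array and under 2 other settings (adjusted p = 0.0598 to 0.122).

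**Figure D4:**
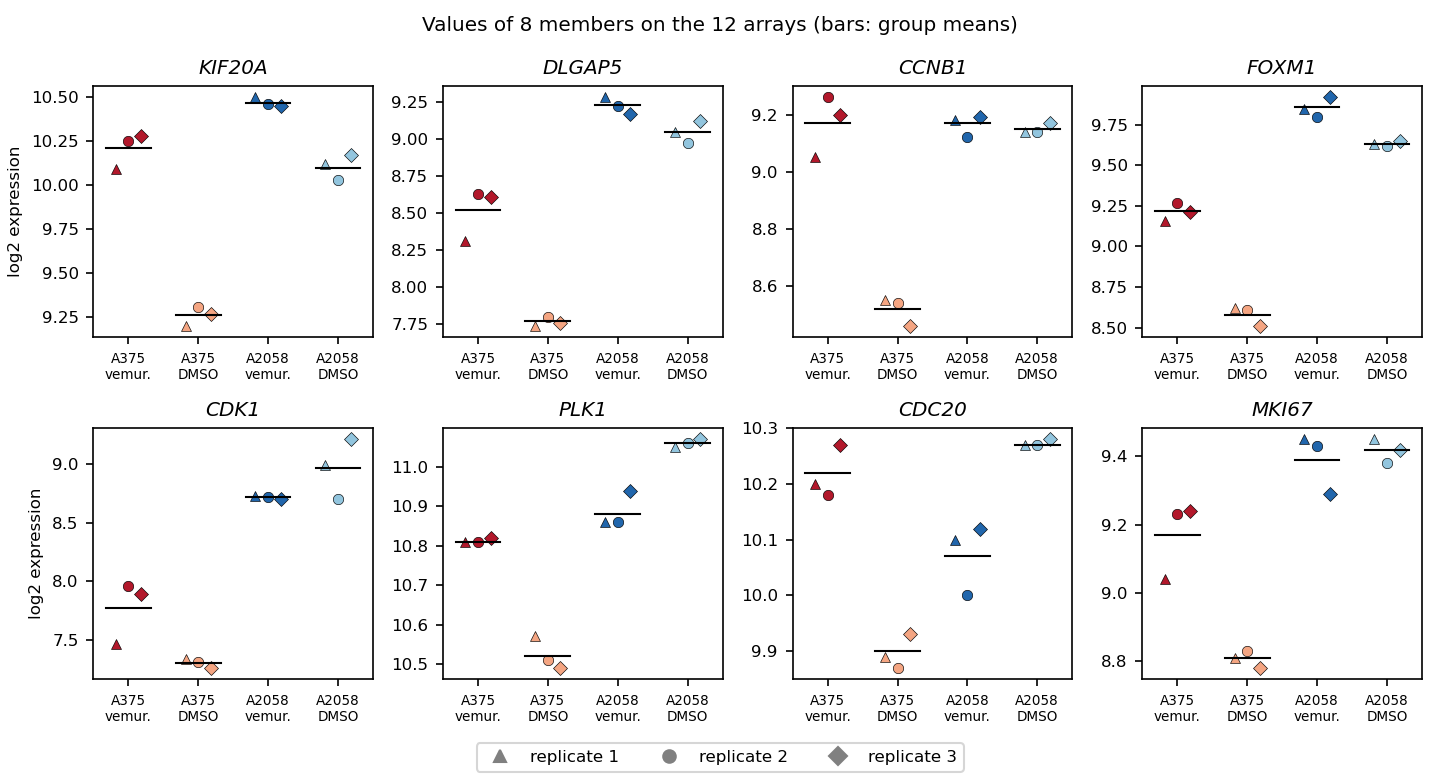
Log2 expression (y axis, separate scale in each panel) of 8 members on the 12 arrays, by group (x axis); symbols show the replicate number and bars mark the group means. KIF20A, DLGAP5, CCNB1 and FOXM1 stand well above DMSO on every A375 vemurafenib array, CDK1 does so by little on replicate 1 (7.46 against 7.34 at most), and PLK1 and CDC20 lie below DMSO on every A2058 vemurafenib array.

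Of 4 mitotic kinases, 3 rose in A375 (median of the 4, 0.31), and PLK1 fell in A2058. PLK1, the polo kinase of centrosomes, kinetochores and mitotic exit, stood at 10.81, 10.81 and 10.82 in A375 vemurafenib arrays, against 10.57, 10.51 and 10.49 in A375 DMSO arrays. In A2058 it stood at 10.86, 10.86 and 10.94 with vemurafenib, against 11.05, 11.06 and 11.07 with DMSO. Neither pair of groups overlapped, and the order was opposite in the lines: 0.29 ± 0.038 in A375 (adjusted p = 4.46e-05), -0.18 ± 0.038 in A2058 (adjusted p = 0.0035) and 0.47 ± 0.054 for the difference (adjusted p = 2.44e-05). NEK2, a kinase that separates centrosomes, gave 7.56, 7.64 and 7.81 in A375 vemurafenib arrays, against 7.28, 7.33 and 7.29 in A375 DMSO arrays. In A2058 NEK2 gave 8.40, 8.22 and 8.25 with vemurafenib, against 8.14, 8.04 and 8.13 with DMSO. All treated arrays were above the DMSO arrays in both lines; the A375 change of 0.37 ± 0.066 was called (adjusted p = 0.000545), and the A2058 change of 0.19 ± 0.066 was not (adjusted p = 0.0551). That A2058 value passed without replicate 1 or 3 of A375 vemurafenib and under 4 other settings (adjusted p = 0.0213 to 0.048). AURKA, Aurora A of the spindle poles, rose by 0.33 ± 0.084 in A375, with -0.11 ± 0.084 in A2058. MELK, a kinase often used as a proliferation marker, was not called in either line. Its values were 7.77, 7.89 and 8.08 in A375 vemurafenib arrays, against 7.79, 7.70 and 7.79 in A375 DMSO arrays, and 8.70, 8.73 and 8.69 in A2058 vemurafenib arrays, against 8.74, 8.63 and 8.72 in A2058 DMSO arrays. Only replicate 1 of A375 vemurafenib lay among the DMSO values in A375: the change was 0.16 ± 0.067 (adjusted p = 0.0961), called without that array (0.23, adjusted p = 0.00582) and under 2 other settings. Without it the difference between lines was also called for NEK2 (0.24, adjusted p = 0.0467) and MELK (0.22, adjusted p = 0.0424).

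Kinetochore and checkpoint genes had 8 of 9 measured members called higher in A375 (median 0.39) and 2 in A2058. CENPE, the kinesin that moves chromosomes to the spindle equator, read 7.23, 7.86 and 7.80 in A375 vemurafenib arrays, against 7.04, 7.02 and 6.91 in A375 DMSO arrays. In A2058 it read 8.19, 8.16 and 8.09 with vemurafenib, against 8.13, 7.90 and 8.24 with DMSO. The A375 groups did not overlap, though replicate 1 with vemurafenib stood far below replicates 2 and 3, and the A2058 groups overlapped; the changes were 0.64 ± 0.14 in A375 (adjusted p = 0.00225) and 0.056 ± 0.14 in A2058 (adjusted p = 0.868). CENPF, a large coiled-coil protein of the outer kinetochore, read 9.55, 9.70 and 9.71 in A375 vemurafenib arrays, against 9.19, 9.17 and 9.24 in A375 DMSO arrays. Its A2058 values were 10.46, 10.40 and 10.43 with vemurafenib, against 10.10, 10.10 and 10.13 with DMSO. Both pairs were separated, with rises of 0.45 ± 0.047 in A375 (adjusted p = 5.25e-06) and 0.32 ± 0.047 in A2058 (adjusted p = 0.000171). SPC25, a subunit of the NDC80 complex that grips microtubules, gave 5.01, 5.08 and 5.06 in A375 vemurafenib arrays, against 5.15, 4.86 and 4.85 in A375 DMSO arrays. In A2058 SPC25 gave 6.70, 6.81 and 6.86 with vemurafenib, against 6.99, 6.58 and 7.21 with DMSO. Treated and DMSO arrays overlapped in both lines, and the changes were 0.10 ± 0.13 in A375 (adjusted p = 0.663) and -0.13 ± 0.13 in A2058 (adjusted p = 0.574). All A375 values of SPC25 lay below the array medians of 5.19 to 5.3, near the lower end of the scale. A change there may be understated. Without A2058 DMSO replicate 2 the SPC25 change in A2058 was -0.31 (adjusted p = 0.0372) and the difference between lines 0.40 (adjusted p = 0.0367). Of the other subunits of that complex, NDC80 (0.55 ± 0.092) and NUF2 (0.39 ± 0.11) rose in A375. SPC24, which is not a member, was at 0.11 ± 0.051 (adjusted p = 0.118; 0.16 and adjusted p = 0.0124 without A375 vemurafenib replicate 1). Also higher in A375 were the checkpoint genes BUB1 (0.39 ± 0.087), BUB1B (0.42 ± 0.047), TTK (0.32 ± 0.11) and SGO1, the protector of centromere cohesion (0.33 ± 0.12). In A2058 these 6 lay between -0.12 (NUF2) and 0.15 (BUB1B), and of them only BUB1B was called there.

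Several kinetochore calls lay near the threshold and were lost when any one of several arrays was left out. In A375, SGO1 (adjusted p = 0.0476) was lost without any one array other than replicate 1 of A375 vemurafenib, replicate 2 of A2058 DMSO and replicate 3 of A2058 vemurafenib, and under 3 other settings (adjusted p = 0.0506 to 0.188). TTK (adjusted p = 0.0328) was lost without replicate 2 or 3 of A375 DMSO or replicate 2 or 3 of A375 vemurafenib and under 3 other settings (adjusted p = 0.0562 to 0.132). The BUB1B call in A2058 (adjusted p = 0.0322) was lost without any A2058 DMSO array or replicate 1 or 2 of A2058 vemurafenib and under 2 other settings (adjusted p = 0.0595 to 0.174). The difference between lines was called for CENPE (0.58, adjusted p = 0.0389), NUF2 (0.51, 0.022), NDC80 (0.43, 0.026), BUB1 (0.35, 0.0492) and BUB1B (0.27, 0.00886). For CENPE it was lost without any one array other than replicate 1 of A375 vemurafenib and replicate 2 of A2058 DMSO and under 2 other settings (adjusted p = 0.0591 to 0.0964). For BUB1 it was lost without any one array other than these and A2058 vemurafenib replicate 1 and under 2 other settings (adjusted p = 0.0672 to 0.123). For NDC80 it was lost without replicate 2 of A375 DMSO, replicate 2 or 3 of A375 vemurafenib, replicate 1 or 3 of A2058 DMSO, or replicate 1 or 3 of A2058 vemurafenib or with centred arrays (adjusted p = 0.0534 to 0.0677). For NUF2 it was lost without replicate 2 of A375 vemurafenib, replicate 3 of A2058 DMSO or replicate 3 of A2058 vemurafenib or with centred arrays (adjusted p = 0.0506 to 0.0582). Without A375 vemurafenib replicate 1 it was also called for CENPF (0.18, adjusted p = 0.0166), TTK (0.35, 0.0197) and SGO1 (0.52, 0.00646).

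The chromosomal passenger complex corrects wrong attachments and follows chromosomes to the cleavage site, and 2 of its 3 members here rose in A375. BIRC5, survivin, read 7.84, 7.81 and 7.95 in A375 vemurafenib arrays, against 7.23, 7.33 and 7.34 in A375 DMSO arrays. In A2058 it read 8.71, 8.67 and 8.60 with vemurafenib, against 8.69, 8.53 and 8.62 with DMSO. The A375 groups were far apart (0.56 ± 0.055, adjusted p = 3.29e-06) and the A2058 groups overlapped (0.048 ± 0.055, adjusted p = 0.662), with a difference of 0.52 ± 0.078 (adjusted p = 0.000239). With its 2 probe sets averaged, the second of them dim, BIRC5 was at 0.31 in A375 (adjusted p = 2.5e-05) and the difference, still called, was 0.31. CDCA8, borealin, gave 8.11, 8.05 and 8.17 in A375 vemurafenib arrays, against 7.67, 7.70 and 7.45 in A375 DMSO arrays. In A2058 CDCA8 gave 8.59, 8.55 and 8.66 with vemurafenib, against 8.39, 8.33 and 8.39 with DMSO. Treated arrays were above DMSO in both lines, by 0.51 ± 0.064 in A375 (adjusted p = 2.94e-05) and by 0.23 ± 0.064 in A2058 (adjusted p = 0.0149). The A2058 call was lost without replicate 2 of A2058 DMSO or replicate 3 of A2058 vemurafenib (adjusted p = 0.0563 to 0.0651). The difference for CDCA8 (0.27, adjusted p = 0.0365) was lost without replicate 3 of A375 DMSO, replicate 3 of A375 vemurafenib, replicate 1 or 3 of A2058 DMSO, or replicate 1 or 2 of A2058 vemurafenib and under 2 other settings (adjusted p = 0.0614 to 0.0892). AURKB, Aurora B, the kinase of the complex, was not called in A375 (-0.024 ± 0.064) or in A2058 (0.16 ± 0.064, adjusted p = 0.0947). In A2058 it passed without A375 vemurafenib replicate 1 or with array weights (adjusted p = 0.0167 to 0.0486).

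Spindle motors and microtubule binders had 6 of 9 members called higher in A375 (median 0.42) and 2 in A2058. DLGAP5, which bundles the kinetochore fibres, stood at 8.31, 8.63 and 8.61 in A375 vemurafenib arrays, against 7.74, 7.80 and 7.76 in A375 DMSO arrays. In A2058 it stood at 9.28, 9.22 and 9.17 with vemurafenib, against 9.05, 8.97 and 9.12 with DMSO. Treated arrays were above DMSO in both lines. The A375 change of 0.75 ± 0.076 was called (adjusted p = 4.26e-06); the A2058 change of 0.18 ± 0.076 was not (adjusted p = 0.115), but passed without A375 vemurafenib replicate 1 and under 3 other settings (adjusted p = 0.0063 to 0.0273). KIF18A, the kinesin that dampens chromosome movements, read 7.63, 7.94 and 7.98 in A375 vemurafenib arrays, against 7.31, 7.33 and 7.01 in A375 DMSO arrays. Its A2058 values were 8.51, 8.47 and 8.45 with vemurafenib, against 8.80, 8.63 and 8.87 with DMSO. The treated arrays lay above DMSO in A375 and below DMSO in A2058, and the difference of 0.92 ± 0.14 was the largest of the members (adjusted p = 0.000293). Its parts were 0.63 ± 0.10 in A375 (adjusted p = 0.00025) and -0.29 ± 0.10 in A2058 (adjusted p = 0.0523). The A2058 value passed without replicate 3 of A375 DMSO, replicate 1 or 3 of A375 vemurafenib or replicate 2 of A2058 DMSO and under 5 other settings (adjusted p = 0.00542 to 0.0478). ASPM, a spindle pole protein, rose by 0.73 ± 0.056 in A375 and by 0.25 ± 0.056 in A2058, and NUSAP1, which bundles microtubules near chromosomes, by 0.42 ± 0.06 and 0.21 ± 0.06. TPX2, an activator of Aurora A, rose by 0.48 ± 0.057 in A375, with 0.048 in A2058.

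The NUSAP1 call in A2058 (adjusted p = 0.02) was lost without replicate 2 of A2058 DMSO or replicate 1 or 2 of A2058 vemurafenib and with centred arrays (adjusted p = 0.0504 to 0.105). KIF2C, which takes microtubules apart at centromeres, was called at 0.19 in A375 (adjusted p = 0.0437). That call was lost without any A375 DMSO array, replicate 2 or 3 of A375 vemurafenib, replicate 1 of A2058 DMSO or replicate 1 or 2 of A2058 vemurafenib and under 2 other settings (adjusted p = 0.051 to 0.165). KIF11 and KIF15, the kinesins that push the spindle poles apart, had A375 changes of 0.079 ± 0.084 and -0.05 ± 0.10 and were not called in either line. HMMR, a spindle assembly protein, was at 0.28 ± 0.11 (adjusted p = 0.0633). Without A375 vemurafenib replicate 1, HMMR (0.44, adjusted p = 0.000182) and KIF11 (0.19, adjusted p = 0.0154) passed in A375. The differences of HMMR (0.39, adjusted p = 0.00518), KIF2C (0.24, 0.0253) and NUSAP1 (0.28, 0.00385) also passed without it.

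Genes of the central spindle and cytokinesis rose together in A375, with all 7 called higher in A375 (median 0.56), all 7 with a called difference between lines and 1 called in A2058. KIF20A, the kinesin that brings the passenger complex and PLK1 to the central spindle, stood at 10.09, 10.25 and 10.28 in A375 vemurafenib arrays, against 9.20, 9.31 and 9.27 in A375 DMSO arrays. In A2058 it stood at 10.50, 10.46 and 10.45 with vemurafenib, against 10.12, 10.03 and 10.17 with DMSO. Treated arrays were clear of DMSO in both lines, and the changes were the highest of the 45 members in each: 0.95 ± 0.056, or 1.93-fold, in A375 (adjusted p = 2.67e-08) and 0.37 ± 0.056, or 1.29-fold, in A2058 (adjusted p = 0.000284). ANLN, anillin, a scaffold of the contractile ring, read 9.75, 9.96 and 9.96 in A375 vemurafenib arrays, against 9.32, 9.35 and 9.21 in A375 DMSO arrays. In A2058 it read 10.58, 10.55 and 10.60 with vemurafenib, against 10.56, 10.39 and 10.54 with DMSO. The A375 groups were separate and the A2058 groups overlapped (0.60 ± 0.065, adjusted p = 7.33e-06, and 0.081 ± 0.065, adjusted p = 0.466). The other rises in A375 were those of KIF4A (0.57 ± 0.068) and PRC1 (0.56 ± 0.046), which organise the central spindle, ECT2 (0.42 ± 0.06), the activator of RhoA at the furrow, KIF14 (0.38 ± 0.078) and KIF23 (0.37 ± 0.053), a subunit of centralspindlin. In A2058 these 5 lay between -0.08 (ECT2) and 0.054 (PRC1). The differences of the 7 ran from 0.37 for KIF23 to 0.58 for KIF20A, and the A375 calls and differences of all 7 and the KIF20A call in A2058 held under every alternative that was run.

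The genes of mitotic proteolysis were mixed: 2 of 4 rose in A375 (median 0.22) and CDC20 fell in A2058. CDC20, the activator of the anaphase promoting complex, read 10.20, 10.18 and 10.27 in A375 vemurafenib arrays, against 9.89, 9.87 and 9.93 in A375 DMSO arrays. Its A2058 values were 10.10, 10.00 and 10.12 with vemurafenib, against 10.27, 10.27 and 10.28 with DMSO. As for PLK1, no groups overlapped and the directions were opposite: 0.32 ± 0.043 in A375 (adjusted p = 5.11e-05), -0.20 ± 0.043 in A2058 (adjusted p = 0.00321) and 0.52 ± 0.06 for the difference (adjusted p = 2.54e-05). PTTG1, securin, which holds separase inactive, gave 8.69, 8.72 and 8.64 in A375 vemurafenib arrays, against 8.32, 8.36 and 8.25 in A375 DMSO arrays. In A2058 PTTG1 gave 8.81, 8.80 and 8.90 with vemurafenib, against 9.00, 8.90 and 8.87 with DMSO. The A375 groups were separate (0.37 ± 0.048, adjusted p = 4.33e-05) and the A2058 groups overlapped (-0.085 ± 0.048, adjusted p = 0.262, but 0.0357 with array weights). CDCA3, an adaptor of a ubiquitin ligase that degrades WEE1, read 6.74, 6.78 and 6.69 in A375 vemurafenib arrays, against 6.60, 6.68 and 6.54 in A375 DMSO arrays. Its A2058 values were 7.63, 7.59 and 7.75 with vemurafenib, against 7.61, 7.47 and 7.42 with DMSO. The A375 treated arrays were just above DMSO and the A2058 arrays overlapped. Neither CDCA3 change was called (0.13 ± 0.059, adjusted p = 0.119, in A375; 0.16 ± 0.059, adjusted p = 0.0641, in A2058), and the A2058 one passed without A2058 DMSO replicate 1 (0.22, adjusted p = 0.0215). UBE2C, the ubiquitin conjugating enzyme of the complex, was at 0.049 ± 0.043 in A375 and 0.012 ± 0.043 in A2058, neither called.

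All 4 transcription and chromosome proteins rose in A375 (median 0.48), and FOXM1 also rose in A2058. FOXM1, the transcription factor of the G2/M genes, stood at 9.16, 9.27 and 9.21 in A375 vemurafenib arrays, against 8.62, 8.61 and 8.51 in A375 DMSO arrays. In A2058 it stood at 9.85, 9.80 and 9.92 with vemurafenib, against 9.63, 9.62 and 9.65 with DMSO. Treated arrays were above DMSO in both lines, by 0.64 ± 0.047 in A375 (adjusted p = 2.17e-07) and by 0.22 ± 0.047 in A2058 (adjusted p = 0.00304), and the difference was 0.41 ± 0.066 (adjusted p = 0.000361). GTSE1, a microtubule binding protein that restrains p53 in G2, gave 7.72, 7.73 and 7.80 in A375 vemurafenib arrays, against 7.03, 7.23 and 7.21 in A375 DMSO arrays. In A2058 GTSE1 gave 8.38, 8.41 and 8.30 with vemurafenib, against 8.21, 8.25 and 8.29 with DMSO. Treated arrays again lay above DMSO in both lines, but only A375 was called (0.59 ± 0.056, adjusted p = 2.27e-06; A2058 0.11 ± 0.056, adjusted p = 0.197). MKI67, the Ki-67 antigen that coats mitotic chromosomes, read 9.04, 9.23 and 9.24 in A375 vemurafenib arrays, against 8.81, 8.83 and 8.78 in A375 DMSO arrays. In A2058 it read 9.45, 9.43 and 9.29 with vemurafenib, against 9.45, 9.38 and 9.42 with DMSO. The A375 groups were separate and the A2058 groups interleaved, and the responses differed by 0.39 ± 0.084 (adjusted p = 0.00315). TOP2A, the topoisomerase that untangles sister chromatids, read 9.80, 10.05 and 10.07 in A375 vemurafenib arrays, against 9.75, 9.78 and 9.73 in A375 DMSO arrays. In A2058 TOP2A read 10.42, 10.45 and 10.36 with vemurafenib, against 10.27, 10.19 and 10.27 with DMSO. Treated arrays were above DMSO in both lines, by 0.22 ± 0.063 in A375 (adjusted p = 0.0146) and 0.17 ± 0.063 in A2058 (adjusted p = 0.0665). The A375 call was lost without replicate 3 of A375 DMSO or replicate 2 or 3 of A375 vemurafenib and under 2 other settings (adjusted p = 0.05 to 0.0826). The A2058 value passed without A375 vemurafenib replicate 1 and under 4 other settings (adjusted p = 0.00349 to 0.0355).

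The lines were also compared with each other. The sources used here give no scan dates, so a batch difference between the lines could not be checked. With DMSO all 45 members were lower in A375 than in A2058, and the 3 arrays of A375 DMSO lay below the 3 of A2058 DMSO for all 45; 46.4% of all genes were called (23.9% higher and 22.5% lower), and 28.3% of all genes were separated downwards. The median difference was -0.84, an A375 level 0.56 times that of A2058, and 13 members were at least 2-fold lower, against 6.37% of all genes called and at least 2-fold apart in either direction. The widest gaps were those of SPC25 (-1.97 ± 0.13), CDK1 (-1.66 ± 0.13), KIF18A (-1.55 ± 0.10), BUB1 (-1.37 ± 0.087), BIRC5 (-1.31 ± 0.055), DLGAP5 (-1.28 ± 0.076), NDC80 (-1.24 ± 0.092) and ANLN (-1.21 ± 0.065). With its probe sets averaged the BIRC5 gap was -0.76, outside the widest, and with vemurafenib it was -0.46, against -0.79 from the brightest. SPC25 read below the array medians of 5.19 to 5.3 in A375, so its gap may be understated. The narrowest gaps were those of AURKB (-0.19 ± 0.064) and UBE2C (-0.20 ± 0.043). The AURKB call (adjusted p = 0.0251) was lost without replicate 1 or 3 of A375 DMSO or replicate 1 or 2 of A2058 DMSO (adjusted p = 0.0518 to 0.0839). By role the median ran from -1.06 for kinetochore and checkpoint genes to -0.49 for mitotic proteolysis.

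With vemurafenib fewer members were called apart, the change of a gap being the difference of the responses given above. In A375, 39 members were lower than in A2058 and 1 higher, against 24.2% and 22.7% of all genes (46.9% in all), the median was -0.45, and 2 members, SPC25 (-1.74 ± 0.13) and BUB1 (-1.02 ± 0.087), stayed at least 2-fold lower, against 7.23% of all genes called and at least 2-fold apart. CCNB1 (0.0067 ± 0.052), AURKA (-0.053 ± 0.084), PLK1 (-0.072 ± 0.038), CCNB2 (-0.094 ± 0.093) and NUF2 (-0.24 ± 0.11) were not called, and CDC20 was higher in A375 (0.14 ± 0.043, adjusted p = 0.0132). The CDC20 call was lost without replicate 3 of A375 vemurafenib or replicate 2 of A2058 vemurafenib and from these arrays alone (adjusted p = 0.0602 to 0.0698). PTTG1 (-0.16, adjusted p = 0.0178) was lost without replicate 3 of either vemurafenib group (adjusted p = 0.0662 to 0.0803). KIF2C (-0.19, adjusted p = 0.0298) was lost without replicate 1 of A375 vemurafenib or replicate 2 or 3 of A2058 vemurafenib and under 3 other settings (adjusted p = 0.0585 to 0.12). NUF2 passed without A375 vemurafenib replicate 3 (-0.34, adjusted p = 0.0192) and was at -0.084 (adjusted p = 0.289) without A375 vemurafenib replicate 1. Without replicate 1 the median gap was -0.38, with 38 members lower and 1 higher, and SPC25 alone was at least 2-fold lower, with BUB1 at -0.90. Of all 18404 genes, 5251 were then lower and 4428 higher. CENPE was then at -0.32, against -0.52 with all arrays, and HMMR at -0.26, against -0.41. CCNB2 (0.039) and AURKA (0.027) were then above 0, and neither was called. For CDCA3 the gap was -0.92 ± 0.059 with vemurafenib and -0.89 with DMSO, and for CDC25C it was -0.83 ± 0.074 with vemurafenib and -0.84 with DMSO; neither had a called difference in response.

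**Figure D5:**
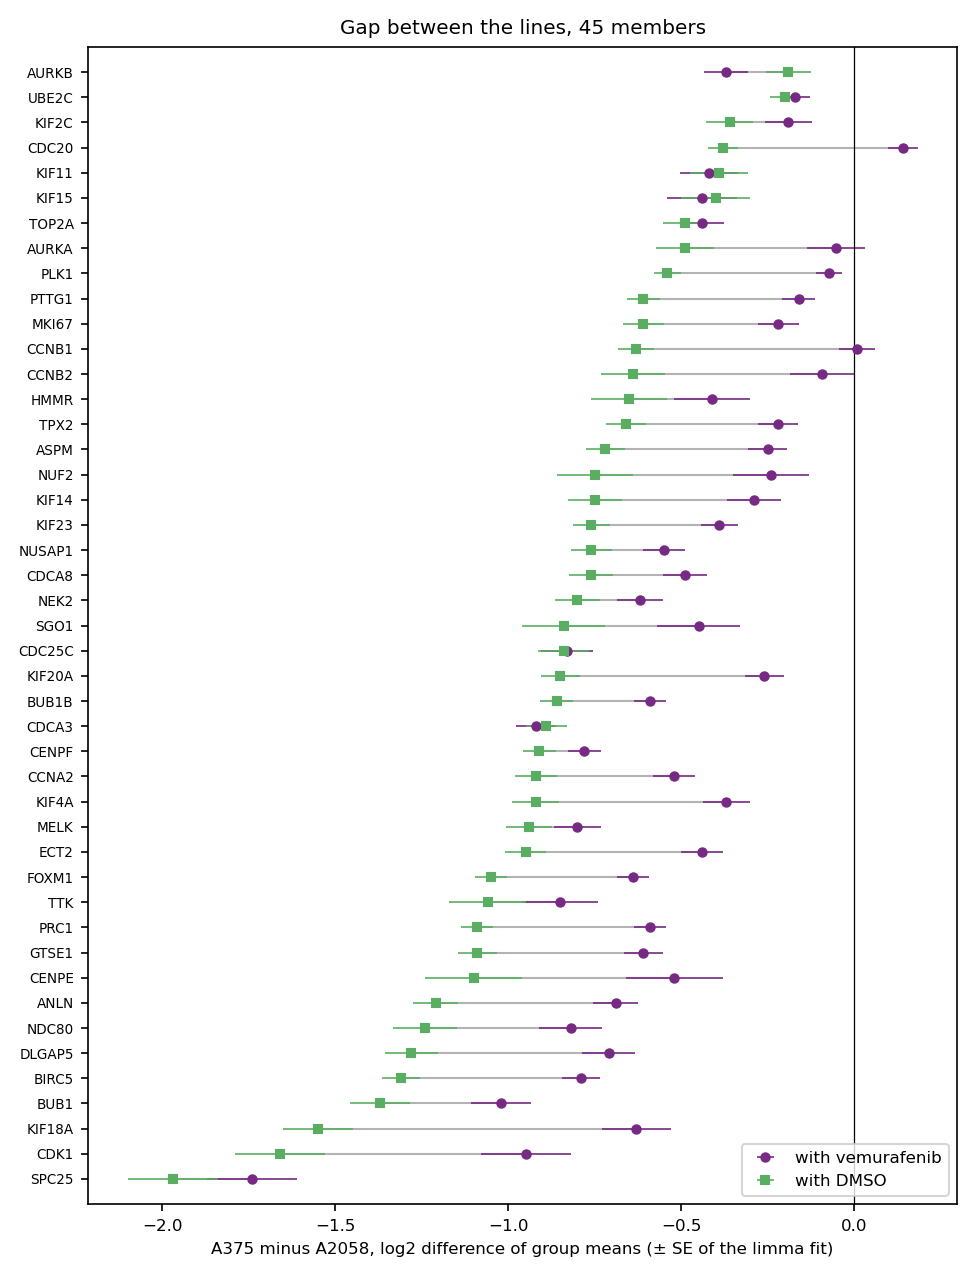
Difference between the lines for each of the 45 members, A375 minus A2058 as log2 ± SE of the limma fit (x axis), with vemurafenib (circles) and with DMSO (squares), ordered by the DMSO gap. All squares lie below 0, from -1.97 to -0.19, and the circles lie closer to 0 for most members, with CCNB1 at 0.0067 and CDC20 at 0.14.

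Other genes of mitosis, 109 measured of 112 in 6 lists that hold none of the members, were called in both directions. In A375, 47 rose (43.1%, against 17.7% of all genes) and 15 fell (13.8%, against 19.3%), with a median of 0.14. In A2058, 18 rose (16.5%, against 14.6% of all genes) and 13 fell (11.9%, against 12.5%), shares near those of all genes, with a median of -0.0031. Without A375 vemurafenib replicate 1, 22 fell, and 2730 of all 18404 genes did so. Of 12 further kinases and phosphatases of G2/M, 6 rose (50%) and 4 fell (33.3%) in A375. CKS2, a CDK1 subunit (0.74 ± 0.054), and the mitotic kinase PBK (0.48 ± 0.094) rose most. The largest fall among the 109 with the brightest probe sets was that of WEE1, the kinase that inhibits CDK1, whose values were 6.58, 6.82 and 6.85 in A375 vemurafenib arrays, against 7.72, 7.69 and 7.74 in A375 DMSO arrays. All treated arrays were well below DMSO (-0.97 ± 0.063, adjusted p = 6.95e-08), and the change was -0.39 when the probe sets of WEE1 were averaged. PLK4, which licenses centriole duplication, also fell (-0.32 ± 0.11, adjusted p = 0.0315), a call lost when any one A375 DMSO array was left out and under 2 other settings (adjusted p = 0.0583 to 0.116). Without A375 vemurafenib replicate 1 the PLK4 change was -0.15 (adjusted p = 0.0155). In A2058, 3 of these 12 rose (25%) and 2 fell (16.7%). The phosphatase CDC25B (0.41 ± 0.042) and the phosphatase inhibitor ARPP19 (0.33 ± 0.054) rose most, and CDC25A (-0.61 ± 0.062) and the histone kinase HASPIN (-0.22 ± 0.068) fell. The HASPIN call (adjusted p = 0.0318) was lost without replicate 1 or 2 of A2058 DMSO or replicate 2 or 3 of A2058 vemurafenib and with centred arrays (adjusted p = 0.0519 to 0.126). The MuvB complex and its partners, which bind the CHR, had 2 rises among 10 in A375 (20%, near the 17.7% of all genes) and no fall. The rises were those of LIN52 (0.32 ± 0.062) and RBBP4 (0.19 ± 0.05, lost with centred arrays at adjusted p = 0.0527). In A2058 the complex and its partners had 3 rises (30%) and 1 fall (10%), led by RBL2 (0.42 ± 0.078) and LIN54 (0.28 ± 0.067), with E2F4 at -0.26 ± 0.052.

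Of 35 other kinetochore and checkpoint genes, 16 rose (45.7%) and 4 fell (11.4%) in A375, and 3 rose (8.57%) and 4 fell (11.4%) in A2058. The shares of all genes were 17.7% higher and 19.3% lower in A375 and 14.6% higher and 12.5% lower in A2058. In A375 the cohesin protector SGO2 (0.63 ± 0.07) and the kinetochore scaffold KNL1 (0.60 ± 0.059) rose most, and CENPU (-0.39 ± 0.088) and NSL1 (-0.30 ± 0.064) fell most. In A2058 KNL1 (0.34 ± 0.059) and CENPC (0.22 ± 0.069) rose most, and CENPK (-0.66 ± 0.081) and the checkpoint protein MAD2L1 (-0.33 ± 0.098) fell most. The CENPC call (adjusted p = 0.0318) was lost without replicate 1 or 3 of A2058 DMSO or replicate 2 or 3 of A2058 vemurafenib and under 2 other settings (adjusted p = 0.0553 to 0.139). MAD2L1 (adjusted p = 0.0224) was lost without any of the same 4 arrays (adjusted p = 0.052 to 0.108). Of 21 other spindle and cytokinesis genes, 13 rose (61.9%) and 2 fell (9.52%) in A375. CKAP2 (0.86 ± 0.048) and citron kinase, CIT (0.70 ± 0.04), led the rises, with CKAP2L (-0.33 ± 0.049) and CEP192 (-0.27 ± 0.066) lower. In A2058, 7 of the 21 rose (33.3%), led by PSRC1 (0.44 ± 0.095) and PIMREG (0.32 ± 0.077), and CKAP2L fell (-0.28 ± 0.049). Condensin, cohesin and separase genes had 3 rises and 3 falls among 15 in A375 (20% each), near the shares of all genes. Among them were SMC1A at 0.33 ± 0.051, NCAPH at 0.22 ± 0.048, SMC3 at -0.44 ± 0.055 and NCAPD3 at -0.22 ± 0.038. In A2058 only NCAPD3 was called (-0.24 ± 0.038). Of 16 other genes of the anaphase promoting complex, 7 rose (43.8%) and 2 fell (12.5%) in A375. ANAPC11 (0.40 ± 0.12, lost without A375 DMSO replicate 2 at adjusted p = 0.0823) and ANAPC15 (0.38 ± 0.06) rose most, and the inhibitor FBXO5 (-0.30 ± 0.07) and CDC16 (-0.25 ± 0.069, but -0.16 without A375 vemurafenib replicate 1) fell. In A2058, 2 of these 16 rose (12.5%) and 4 fell (25%). CDC16 (0.42 ± 0.069) and CDC23 (0.21 ± 0.064) rose, and UBE2S (-0.44 ± 0.053) and ANAPC16 (-0.25 ± 0.061) fell most. The CDC23 call (adjusted p = 0.0243) was lost without replicate 1 or 2 of A2058 DMSO or any A2058 vemurafenib array and with centred arrays (adjusted p = 0.0504 to 0.108).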

How the data were processed

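The authors deposited a log2 value for each of 32321 probe sets on every one of the 12 arrays. The submitters' processing notes name R 3.0.1 and affy; which background correction and summary method they ran is not given in the sources used here. The scale was read from the values (3.24 to 13.08, array medians 5.19 to 5.3). Dim signals are compressed, so their changes are understated; precision is limited by how few arrays each group has. Levels of different genes are not compared, since probe sets differ in brightness.

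Probe sets with exactly 1 symbol in the platform annotation (19158; 1388 had several and 11775 none) were kept, and names were updated by Entrez number through the RefSeq table of GRCh38.p14 (19128 matched). Of several probe sets for 1 of 637 genes, the brightest was used. limma 3.58.1 (R 4.3.3) fitted the mean of each of the 4 groups over all arrays in a joint model, with eBayes moderation of the contrasts; tests were two-sided and Benjamini-Hochberg adjusted over 18404 genes. Errors after ± are standard errors of this fit, with 3 arrays per group. In a simulation each of the 18404 genes had 1 mean and 1 spread pooled over the 4 groups, with independent normal noise. The A375 contrast recovered 40%, 90%, 100% and 100% of genes changed by 0.25, 0.5, 1 and 2, with 6 false calls, and the A2058 contrast 38%, 88%, 100% and 100%, with 8. It left out the wider spread of A375 vemurafenib (median SD 0.0866, against 0.0461 to 0.0591 in the other groups). Far fewer genes were changed than were called in the data, so these rates may not hold for the contrasts reported. Alternatives averaged probe sets, left out the dimmest genes, centred or quantile normalized the arrays again, used array weights, a trended and robust fit, only the arrays compared or a replicate block, or left out each array in turn. No array was a copy of another.

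The members and lists were chosen with earlier results of these data known. Array values are given, within each role, for the members with the largest change in A375, the largest in A2058 and the largest gap between lines with DMSO, and for CCNB1, CDK1, PLK1, FOXM1, MKI67 and TOP2A; of the other lists, up to 2 rises and 2 falls per response are named. Promoters came from RefSeq tables of GRCh38.p14.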

Additional observations from a re-analysis of the deposited data

Results flagged for a closer look

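For 29 members the response in A375 differed from that in A2058 by the interaction term of the limma fit (adjusted p from 2.44e-05 to 0.0492), in every case towards a higher value in A375. Of all genes, 13.1% were called above 0 by this term and 16.4% below 0. The calls of CENPE, NUF2, NDC80, BUB1 and CDCA8 were each lost under some alternatives. The difference was 0.92 for KIF18A and 0.71 for CDK1. Among the cyclins it was 0.64 for CCNB1, 0.54 for CCNB2 and 0.40 for CCNA2. Among kinases it was 0.47 for PLK1 and 0.44 for AURKA. Kinetochore and checkpoint genes gave 0.58 for CENPE, 0.51 for NUF2, 0.43 for NDC80, 0.35 for BUB1 and 0.27 for BUB1B. The passenger proteins gave 0.52 for BIRC5 and 0.27 for CDCA8, and the spindle proteins 0.57 for DLGAP5, 0.47 for ASPM and 0.43 for TPX2. Cytokinesis genes gave 0.58 for KIF20A, 0.55 for KIF4A, 0.52 for ANLN, 0.50 for PRC1, 0.50 for ECT2, 0.45 for KIF14 and 0.37 for KIF23. The remaining differences were 0.52 for CDC20, 0.45 for PTTG1, 0.48 for GTSE1, 0.41 for FOXM1 and 0.39 for MKI67.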

How the results depend on the processing

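Of the calls among the members, 31 of 37 in A375, 6 of 10 in A2058, 24 of 29 for the difference of the responses, 44 of 45 between the lines with DMSO and 37 of 40 between the lines with vemurafenib were made under every alternative; the exceptions are named in the report, and no called value changed sign. Of 4455 recomputed values, 58 changed sign and were called under neither setting. The A375 median of 0.39 became 0.47 with array weights and lay between 0.37 and 0.48 with 1 array left out; 0.48 is the value without A375 vemurafenib replicate 1. In A2058 the 8 members called higher became 5 with arrays centred on their medians and 4 to 12 with 1 array left out, and the 2 called lower became 5 with array weights and 2 to 5 with 1 array left out. For the difference of the responses, 1 member, AURKB, was called lower with array weights, and 0 to 1 with 1 array left out. Between the lines with vemurafenib the 1 member called higher became 0 from only the arrays compared and 0 to 1 with 1 array left out, and the median lay between -0.52 and -0.38. The setting with only the arrays compared has no value for the difference. The labels do not say whether replicate numbers pair the samples, and 3 arrays per group are too few to decide it. Deviations of same-numbered arrays from their group means correlated at -0.2, 0.1 and -0.13 in A375 and 0.02, -0.03 and -0.2 in A2058. Those of differently numbered arrays ran from -0.28 to 0.26 in A375 and from -0.22 to 0.21 in A2058. With the replicate block, 35 members were called higher in A375 and none lower, 7 higher and 2 lower in A2058, 26 for the difference, 45 lower between the lines with DMSO, and 39 lower and 1 higher with vemurafenib. Over the alternatives other than leaving out an array, 2791 to 3985 of all genes were called higher in A375. In A2058 2202 to 3396 were higher and 2178 to 2982 lower. For the difference 2085 to 3297 were above 0. Between the lines 3975 to 4899 were lower with DMSO and 4058 to 5175 with vemurafenib.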

Other observations

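3 probe sets name a member but were not used for it. The probe set shared by SLC35F6 and CENPA stood at 8.26, 8.10 and 8.10 in A375 vemurafenib arrays, against 7.51, 7.68 and 7.68 in A375 DMSO arrays, and averaged 8.71 ± 0.12 in A2058 vemurafenib arrays and 8.43 ± 0.077 in A2058 DMSO arrays (SD, n = 3 each). Its treated arrays lay above DMSO in both lines, and which gene it reads cannot be told apart. The probe set shared by KIF4B and KIF4A averaged 6.55 ± 0.062 with vemurafenib and 6.18 ± 0.067 with DMSO in A375, and 6.85 ± 0.046 with vemurafenib and 6.83 ± 0.063 with DMSO in A2058 (SD, n = 3 each). A second probe set of BIRC5, near the lower end of the scale, averaged 4.57 ± 0.088 with vemurafenib and 4.52 ± 0.049 with DMSO in A375, and 4.69 ± 0.0078 with vemurafenib and 4.74 ± 0.054 with DMSO in A2058 (SD, n = 3 each).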
